A study of Homo sapiens with 12 samples.

Results

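Induction of the fusion gene PRCC-TFE3 was measured in cells whose Mediator kinases, CDK8 and CDK19, were held under an inhibitor. The comparison set 3 libraries of HK-2 cells given doxycycline (Dox) and MSC2530818 against 3 libraries given MSC2530818 alone, out of 12 libraries in the study. All genes that reached 1 FPKM (fragments scaled to transcript length and library size) in at least 3 of the 12 libraries were members, which held for 12649 of the 26334 gene symbols in the deposited table (48%). HK-2 is an established line of human renal proximal tubule epithelium, and every library, controls included, came from HK-2 cells that carry the Dox-inducible PRCC-TFE3 gene and were kept under puromycin and blasticidin. The 4 groups, each of 3 replicates that the labels call independent, were vehicle (DMSO), Dox with vehicle, MSC2530818 at 100 nM, and MSC2530818 at 100 nM with Dox, all for 48 h. No cells without the fusion gene received Dox, so what Dox does by itself and what the fusion does cannot be told apart, and whether the line is 1 clone is not given in the sources used here.

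TFE3 belongs to the MiT/TFE transcription factors, which bind short palindromic DNA words (E-boxes) before genes for lysosomal enzymes, the lysosomal proton pump and the Rag and folliculin proteins that report amino acids to mTORC1. In translocation renal cell carcinoma a break joins TFE3 to a partner such as PRCC, and the fusion protein keeps the DNA-binding part of TFE3 and is found in the nucleus. CDK8 or CDK19 sits with cyclin C, MED12 and MED13 in a detachable module of Mediator, the complex between transcription factors and RNA polymerase II, and this module takes part in signal responses such as those through NF-kB, TGF-beta and interferon.

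FPKM sums of the 6 libraries with inhibitor ran from 429208 to 463866, replicate 1 had the highest sum in both groups, and the number of reads behind each value is unknown. The deviation of a library from its group mean moved with transcript GC content across genes (rank correlation 0.615 for replicate 1 and -0.633 for replicate 3 with inhibitor alone, 0.547 and -0.534 with Dox). Within the group with inhibitor alone, replicate 1 correlated with the other libraries at 0.9882 and 0.9805, while replicates 2 and 3 correlated at 0.9912. DMSO replicate 1 gave 0.9881 and 0.979 in its own group. KTN1, 1 gene chosen after its values were seen, stood at 17.8, 42.4 and 64.5 FPKM with inhibitor alone. Counts per gene list of 3 or more are also given below without both first replicates where that moves them by over 1.5 times. Smaller counts, which 1 gene can move that far, are not marked throughout. The keratin genes KRT8 and KRT18 stood at 211 to 399 FPKM without Dox, and the renal transcription factor gene PAX8 at 129 to 135. Of 11 proximal tubule markers 3 were tested and the transport and brush border genes among them, such as LRP2, CUBN and SLC34A1, were not, having stayed under the level for testing. The summed level of the epithelial markers (4 of 5 tested) was 650 to 780 FPKM with inhibitor alone and 496 to 538 with Dox, and that of the proximal tubule markers 251 to 260 and 212 to 226. Sums of distal tubule, endothelial and leukocyte markers stayed at or under 1.02 FPKM, those of podocyte markers at 14.4 to 17.8 and those of fibroblast markers at 1.32 to 3.39 in these 6 libraries. In bulk RNA, fewer cells of a type and less RNA per cell cannot be told apart.

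The DNA words that MiT/TFE, AP-1 and NF-kB factors are known to bind were looked for on both strands in the 250 bases before the start of each gene, in RefSeq promoters of build GRCh38.p14. The E-box CACGTG was in 6.34% of all 35116 promoters and in 15.8% of the 404 matched genes (of 470) whose rise with Dox held under every scaling tried, and the longer word TCACGTGA in 0.854% and 6.68%. Promoters were matched for 79.9% of all tested genes and 77.2% of the genes that fell under every scaling. With fewer than 80% matched, a comparison with those genes is void. The 35116 promoters include many of genes not tested here (10109 tested genes were matched), so they are not a like background either. The shares were 9.26% and 1.82% over the matched tested genes, and 9.07% and 1.09% over the matched genes that fell. The words TGANTCA (AP-1) and GGGANTTTC (an NF-kB-like word) were in 6.57% and 1.12% of all promoters. Their shares were 3.78% and 1.02% over the matched tested genes and 4.46% and 0.99% over the 404 matched rising genes. Over the matched genes that fell they were 4.54% and 1.63%. A CACGTG lies within every TCACGTGA, and a match describes letters, not a bound site. The first 4 windows below belong to genes that rose and the last 3 to genes that fell. They were chosen after the matches were seen, to show the words in place, with the letters of the word named on each line in capitals and all bases before the RefSeq start. The RRAGC window also holds a TGANTCA word, left in lower case.
IGF2R, TCACGTGA 3 times, chr6:159968909-159969081, plus strand: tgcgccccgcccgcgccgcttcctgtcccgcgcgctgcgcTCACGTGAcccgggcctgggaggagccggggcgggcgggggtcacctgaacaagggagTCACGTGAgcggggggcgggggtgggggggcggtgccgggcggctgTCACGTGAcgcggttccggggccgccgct
SLC25A36, TCACGTGA, chr3:140941652-140941739, plus strand: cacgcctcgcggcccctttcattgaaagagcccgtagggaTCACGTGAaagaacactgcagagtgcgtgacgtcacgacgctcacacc
RRAGC, CACGTG, chr1:38859839-38859924, minus strand: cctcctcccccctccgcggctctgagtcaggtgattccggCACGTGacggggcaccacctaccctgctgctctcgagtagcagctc
FNIP1, CACGTG in 2 places, chr5:131797066-131797232, minus strand: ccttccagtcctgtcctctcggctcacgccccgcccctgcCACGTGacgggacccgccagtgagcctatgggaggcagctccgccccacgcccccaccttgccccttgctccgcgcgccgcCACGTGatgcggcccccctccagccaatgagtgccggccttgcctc
CXCL8, TGANTCA, chr4:73740392-73740478, plus strand: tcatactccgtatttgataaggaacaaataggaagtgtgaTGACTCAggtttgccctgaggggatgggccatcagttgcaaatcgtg
F3, TGANTCA in 2 places, chr1:94541923-94542009, minus strand: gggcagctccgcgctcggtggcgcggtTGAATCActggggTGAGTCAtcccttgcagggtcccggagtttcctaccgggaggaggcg
NFKBIA, GGGANTTTC in 2 places, 1 on each strand, chr14:35404781-35404966, minus strand: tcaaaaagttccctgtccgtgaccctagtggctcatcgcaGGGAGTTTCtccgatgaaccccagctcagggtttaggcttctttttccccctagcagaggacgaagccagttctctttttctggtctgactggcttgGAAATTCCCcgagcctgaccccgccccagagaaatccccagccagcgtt

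Dox raised TFE3 itself, the check of the labels. TFE3 stood at 29.7, 27.4 and 26.3 FPKM with inhibitor alone and at 87.6, 83.2 and 81.7 with Dox and inhibitor, so that the groups lay far apart (log2 change 1.57 ± 0.07 SE, limma adjusted p = 3.4e-07). Reads of the introduced fusion and of the resident gene share this value. The partner PRCC stood at 24.8, 20.3 and 23.2 FPKM without Dox and 32.1, 24.9 and 28.9 with it, a smaller change of 0.32 ± 0.10 (limma adjusted p = 0.049). That call ended after median-ratio scaling, which divides each library by its median ratio to a mean library (adjusted p = 0.14), and under 17 of 27 other settings in all. Of the TFE3 relatives, MITF was at 13.5 to 17.6 FPKM without Dox and 13.9 to 16.8 with it, and TFEB was at 0.43 to 0.68 and 0.60 to 0.83, and neither was called.

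In all, 2304 of 12649 genes (18.2%) were called for Dox in the presence of the inhibitor, at a Benjamini-Hochberg adjusted p under 0.05 in limma. Of these 1537 (12.2%) were higher and 767 (6.06%) lower, so 66.7% of calls were higher in the values as deposited, but 35.3% with median-ratio scaling and 41% with quantile normalization. After median-ratio scaling 658 of the 1537 higher genes and 767 of the 767 lower genes kept their call. At least 2-fold on the log2(FPKM + 1) scale, 26 genes fell and 12 rose, an order that turned with a pseudocount of 0.1 (47 and 53). In 4670 genes (36.9%) the 3 and 3 libraries did not overlap, and so it was for 2293 of the 2304 called. Leaving out the third or the second library with Dox and inhibitor gave 1121 or 1245 calls, and leaving out the second with inhibitor alone 1352. With the replicate number as a block, 4548 genes (36%) were called, among them all 2304. Across genes the log2 change had a rank correlation of -0.563 with transcript GC content, a description of these libraries that covers 94.8% of the tested genes. The genes named below as the largest changes come from 1184 (470 higher, 714 lower) that were called with the same sign under both scalings, did not overlap and had a mean of at least 2 FPKM, and of 1145 with a GC value 1014 were also called once trends with transcript length and GC had been taken out.

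The largest rises after TFE3 belonged to genes of unlike roles, several of them at a low level without Dox. CENPT, a centromere protein that ties chromatin to the kinetochore, stood at 23.2, 23.9 and 24.2 FPKM without Dox and 72.9, 71.3 and 69.9 with it (1.55 ± 0.05, limma adjusted p = 7.3e-08). Of 26 tested centromere and kinetochore genes 3 were higher and 0 lower, with a median of 0.25 against 0.08 over all tested genes (12 higher with the replicate block, 1 after median-ratio scaling, 2 without both first replicates), and NDC80 and DSN1, the other 2, rose by 0.60 and 0.22 in calls that ended under median-ratio scaling. C21orf91 stood at 0.69, 1.07 and 1.27 FPKM without Dox and 3.97, 5.05 and 5.41 with it (1.53 ± 0.15). GBP2, an interferon-induced GTPase, was at 0.90, 0.82 and 0.91 FPKM without Dox and at 3.50, 3.06 and 3.76 with it (1.24 ± 0.09, limma adjusted p = 1.2e-05). RBM47, an RNA-binding protein of epithelia, stood at 3.12, 3.43 and 3.09 against 8.06, 7.26 and 8.11 (1.06 ± 0.06). In CENPT, C21orf91, GBP2 and RBM47 the lowest library with Dox lay above the highest without it, which the choice of the largest changes required.

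Lipid and membrane genes were also among the rises. PLIN2, which coats lipid droplets, stood at 13.4, 12.8 and 12.8 FPKM without Dox and 23.9, 25.7 and 24.3 with it (0.87 ± 0.05, limma adjusted p = 2.6e-06). VLDLR, a lipoprotein receptor, stood at 20.96, 23.7 and 22.9 against 40.6, 44.1 and 40.9 (0.87 ± 0.06). SLC25A36, a mitochondrial carrier of pyrimidine nucleotides with the longer E-box shown above, stood at 13.9, 20.0 and 21.3 against 27.0, 37.8 and 37.2 (0.86 ± 0.19), with its lowest value in replicate 1 of both groups. The remaining rises of this rank were RENBP, which binds renin and acts on amino sugars (0.98), the tRNA methyltransferase gene TRMT10A (1.02), the oxidation resistance gene OXR1 (1.03), MYBL1, a transcription factor related to MYB (0.97), UBXN8 (0.95) and CEP57L1 (0.90). OXR1 and MYBL1 each lost the call without Dox plus inhibitor replicate 2 or 3, and OXR1 also without inhibitor replicate 1. SLC25A36 lost it without Dox plus inhibitor replicate 3.

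**Figure D1:**
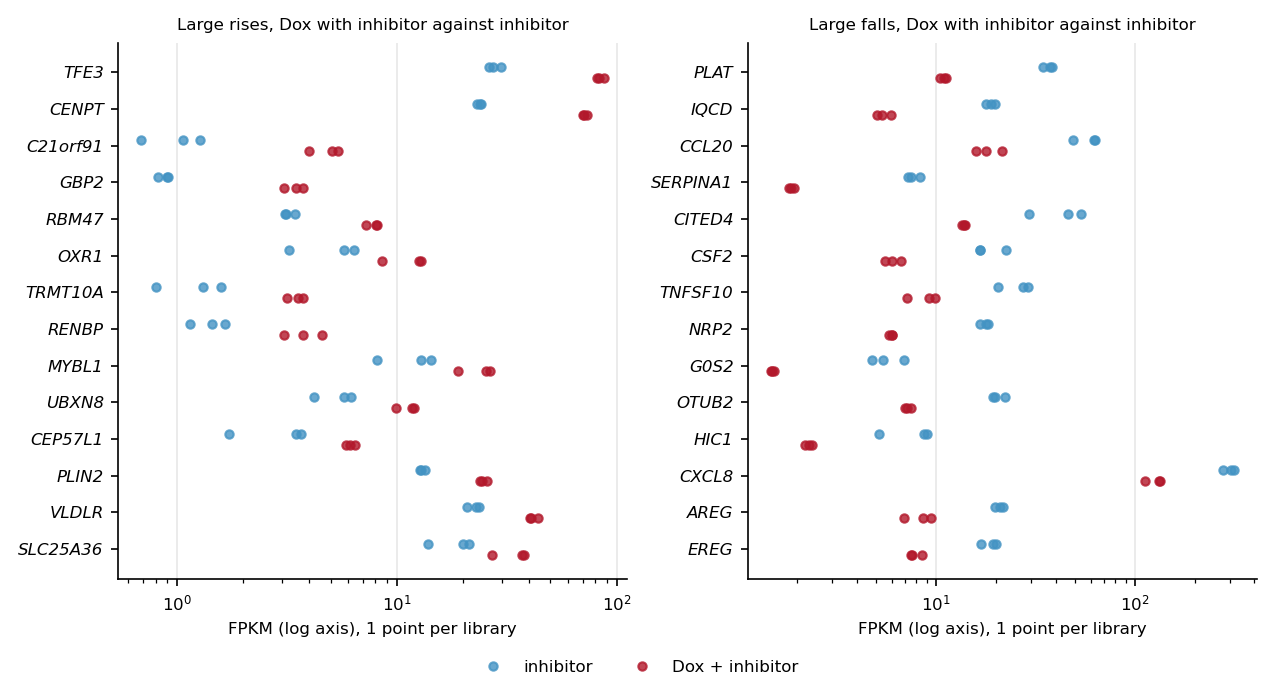
FPKM on a log axis, 1 point per library, for genes among the largest rises (left) and the largest falls (right) that were called under every scaling. Blue points are the 3 libraries with inhibitor alone and red points the 3 with Dox and inhibitor. The colours do not overlap in any gene shown, because only genes without overlap were chosen.

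The known circuit of MiT/TFE factors was higher with Dox under the inhibitor, in part. Of 19 tested markers of translocation carcinoma 9 rose and 1 fell (median 0.36, against 0.08 over all tested genes, and 9 and 3 after median-ratio scaling). RRAGC, a GTPase that carries amino acid signals to mTORC1, stood at 13.2, 12.9 and 13.3 FPKM without Dox and 20.1, 22.4 and 22.2 with it (0.68 ± 0.05, limma adjusted p = 2.0e-05). Its partner RRAGD stood at 0.60, 0.56 and 0.60 against 1.62, 1.46 and 1.46 (0.66 ± 0.08). FNIP1, which binds folliculin, stood at 3.27, 4.94 and 5.45 against 6.77, 8.20 and 8.45 (0.68 ± 0.16), again lowest in replicate 1. The FNIP1 call ended under 4 of 27 other settings, among them without Dox plus inhibitor replicate 2 or 3. GPNMB, a lysosomal glycoprotein used to mark this carcinoma, stood at 7.40, 7.46 and 8.28 against 12.3, 14.4 and 13.6 (0.73 ± 0.08). UAP1L1, related to an enzyme of amino sugar synthesis, stood at 1.9, 2.03 and 1.98 against 4.51, 3.71 and 4.07 (0.78 ± 0.08). In all 5 genes the groups were apart, as in 2293 of all 2304 called genes. The marker TRIM63, a ubiquitin ligase gene chosen after its values were seen, was listed at 0 in the 3 libraries with inhibitor alone and at 0.07, 0.06 and 0.04 FPKM with Dox, and was not called. Of 33 tested genes of folliculin, Rag and mTORC1 sensing 9 rose and 0 fell (8 and 1 after median-ratio scaling), and the list's median turned from 0.07 to -0.02 with that scaling.

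Lysosomal hydrolases rose in 18 of 49 cases and fell in 2 (median 0.16, and 10 and 3 after median-ratio scaling). The carboxypeptidase gene SCPEP1 stood at 11.5, 10.7 and 10.2 FPKM without Dox and 19.7, 17.7 and 17.8 with it (0.72 ± 0.06, limma adjusted p = 5.0e-05). NEU1, the lysosomal sialidase, stood at 35.7, 30.7 and 31.4 against 53.3, 52.4 and 51.0 (0.67 ± 0.09). SMPD1, acid sphingomyelinase, stood at 1.01, 0.92 and 1.24 against 1.99, 1.84 and 2.28 (0.56 ± 0.10). Cathepsin H went the other way: CTSH stood at 60.8, 52.2 and 48.6 FPKM without Dox and 32.4, 29.2 and 28.6 with it (-0.82 ± 0.10, limma adjusted p = 3.2e-04), the largest change of any tested hydrolase. Of 19 V-ATPase subunits, which make up the proton pump, 7 rose and 0 fell (5 after median-ratio scaling, 10 with the block), and each of the 7 was a V1 subunit, of the part that splits ATP in the cytosol. The catalytic subunit gene ATP6V1A stood at 7.17, 6.80 and 7.53 against 12.9, 13.9 and 13.6 FPKM (0.82 ± 0.07, limma adjusted p = 3.4e-05), and ATP6V1H, ATP6V1C1 and ATP6V1D rose by 0.49 to 0.60, in calls that median-ratio scaling ended for ATP6V1C1. Of 27 other settings, 7 in all ended the call of ATP6V1C1 and 5 that of ATP6V1D. Lysosomal membrane and trafficking genes rose in 8 of 40 cases and fell in 2, against 4 and 2 after median-ratio scaling and 17 and 2 with the block. IGF2R, which carries hydrolases to the lysosome and was chosen after its promoter was seen, stood at 51.7, 50.3 and 50.1 FPKM without Dox and 69.9, 67.5 and 65.4 with it (0.41 ± 0.05, limma adjusted p = 3.5e-04). TMEM192, a lysosomal membrane protein, rose by 0.52 ± 0.07, while the endolysosomal cation channel gene TPCN1 stood at 42.4, 40.5 and 39.3 against 25.3, 22.6 and 24.4 and fell by 0.74. Of 41 autophagy genes 9 rose and 1 fell (7 and 2 after median-ratio scaling, 18 and 2 with the block). The protease gene ATG4A (0.72) and the mitophagy receptor genes BNIP3L (0.64) and BNIP3 (0.48) were among them. These shares stand beside 12.2% higher and 6.06% lower over all tested genes, as the plot of calls per gene list shows.

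**Figure D2:**
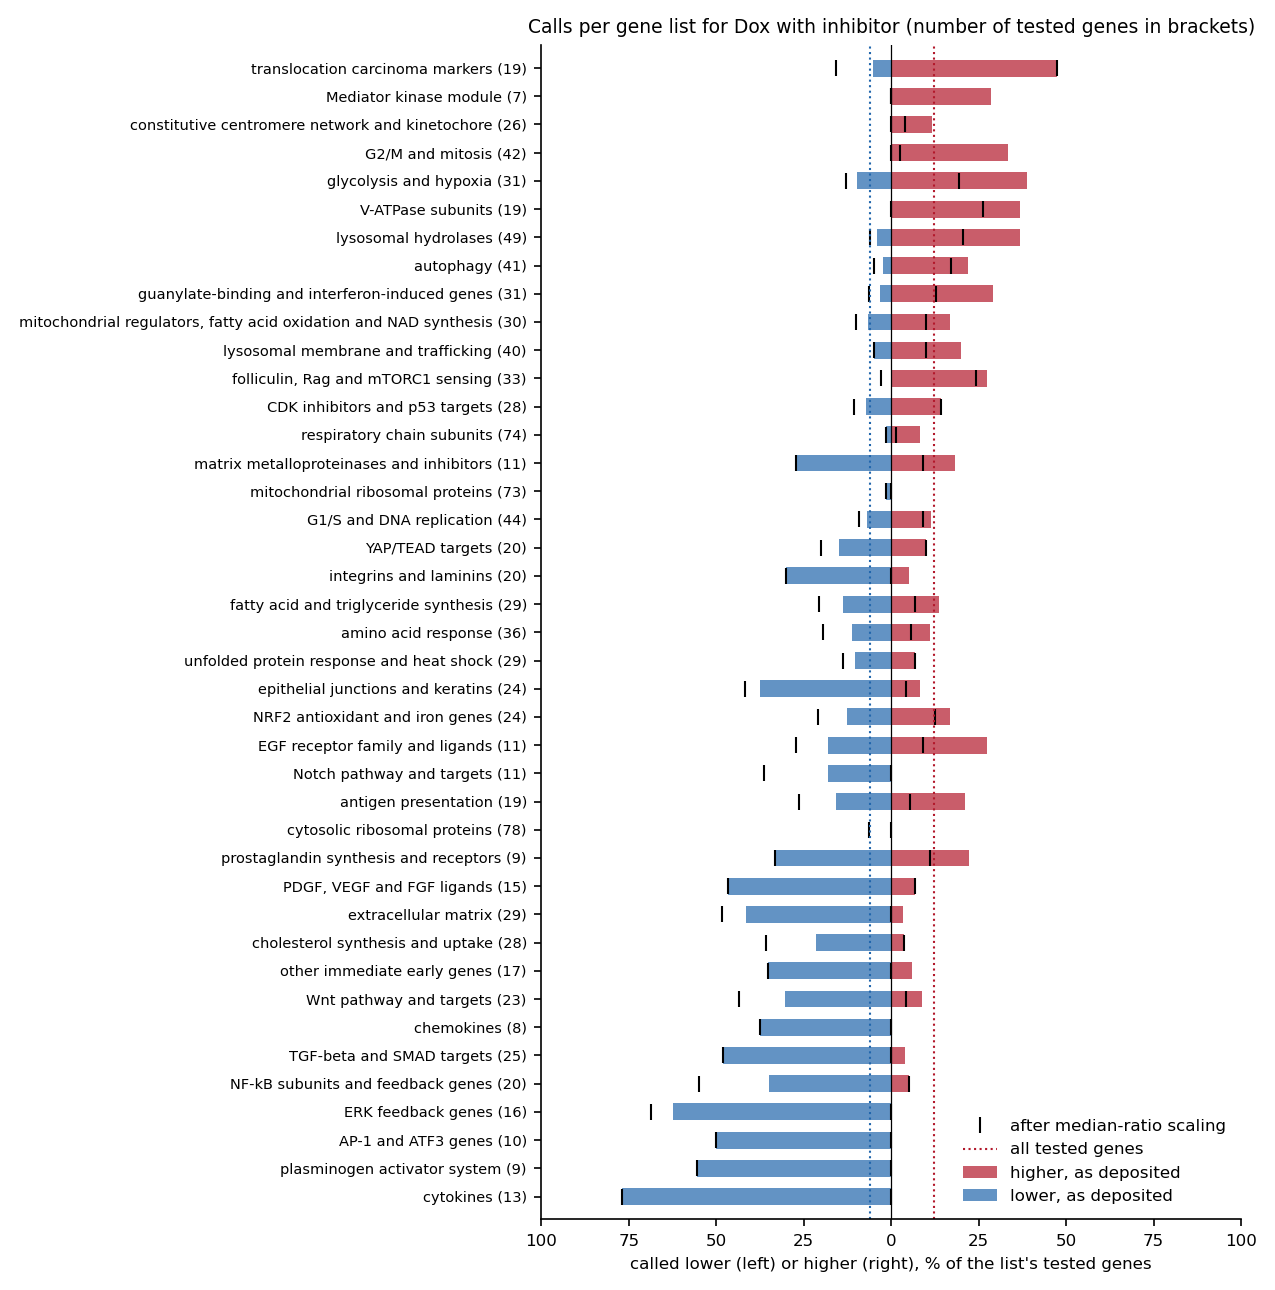
Share of each list's tested genes called lower (blue, left) or higher (red, right) for Dox with inhibitor, with black ticks for the shares after median-ratio scaling and dotted lines for all tested genes (6.06% lower, 12.2% higher). Lists are ordered by their median log2 change. Cytokines, with 10 of 13 lower, lie at the bottom and translocation carcinoma markers, with 9 of 19 higher, at the top. ERK feedback genes, with 10 of 16 lower, lie near the bottom, above the plasminogen system and the AP-1 and ATF3 genes.

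Genes of secreted signals were among those that fell. Of 13 tested cytokine genes 10 fell and 0 rose (median -0.51), with the same counts after median-ratio scaling and with the block, and 9 lower without both first replicates. CSF2, which encodes the growth factor GM-CSF, stood at 22.5, 16.8 and 16.7 FPKM without Dox and 6.70, 6.06 and 5.58 with it (-1.45 ± 0.15, limma adjusted p = 9.8e-05). TNFSF10, the death ligand TRAIL, stood at 20.5, 27.4 and 29.1 against 7.16, 9.25 and 9.95 (-1.44 ± 0.14). TNF stood at 31.1, 30.4 and 31.1 against 13.9, 17.2 and 15.7 (-0.94 ± 0.10), and IL15, a growth factor of lymphocytes, at 16.9, 16.7 and 17.0 against 8.69, 10.1 and 11.9 (-0.68 ± 0.09). No library with Dox reached the lowest library without it in these 4 genes, a lack of overlap found in 2293 of all 2304 called genes. Of 8 tested chemokine genes 3 fell and 0 rose (3 under each scaling). CCL20, which attracts lymphocytes and dendritic cells, stood at 49.2, 62.5 and 63.0 against 16.0, 21.5 and 17.8 FPKM. The neutrophil chemokine gene CXCL8 stood at 278, 305 and 315 against 112, 133 and 133 (-1.24 ± 0.08, limma adjusted p = 8.5e-06), and its relative CXCL2 at 11.5, 12.4 and 10.4 against 5.10, 7.72 and 5.06 (-0.85 ± 0.13). Around NF-kB, 7 of 20 subunit and feedback genes fell and 1 rose (11 and 1 after median-ratio scaling, 11 and 2 with the block). NFKBIA, the inhibitor that holds NF-kB in the cytosol, stood at 95.3, 90.4 and 79.3 against 55.4, 57.1 and 59.2 FPKM (-0.61 ± 0.09, limma adjusted p = 9.6e-04), and IRAK2, a kinase of interleukin-1 and Toll-like receptors, at 18.6, 16.7 and 16.3 against 9.20, 9.51 and 8.22 (-0.87 ± 0.08).

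Several growth factor ligands and genes that answer ERK signalling fell. Of 11 tested EGF receptor family and ligand genes 3 rose and 2 fell (1 and 3 after median-ratio scaling), and of 15 PDGF, VEGF, FGF and related ligands 1 rose and 7 fell (also after that scaling). The ligand gene NRG1 rose by 0.30 ± 0.05 and ADAM17, whose protease frees such ligands, by 0.34 ± 0.08, a call that median-ratio scaling ended. AREG and EREG, ligands of the EGF receptor, stood at 19.9 to 21.7 and 17.0 to 20.1 FPKM without Dox and at 6.91 to 9.52 and 7.50 to 8.52 with it. They fell by 1.23 ± 0.09 and 1.16 ± 0.10 (limma adjusted p = 1.4e-05 and 3.9e-05). PDGFB, a ligand of PDGF receptors, stood at 63.2, 59.8 and 55.0 against 28.0, 31.9 and 28.1 FPKM (-0.99 ± 0.08), and INHBA, which encodes an activin subunit, at 59.2, 80.2 and 81.7 against 43.4, 44.8 and 39.6 (-0.76 ± 0.11). EDN2, a vasoconstrictor peptide gene, moved up, at 17.4, 15.8 and 14.6 against 28.2, 29.9 and 25.9 (0.78 ± 0.13, limma adjusted p = 0.0027). Of 16 tested ERK feedback genes, which encode phosphatases and inhibitors that damp the kinase and factors it turns on, 10 fell and 0 rose (median -0.29, 11 lower after median-ratio scaling, 4 without both first replicates). ETV4, a transcription factor downstream of ERK, stood at 14.6, 14.6 and 13.2 against 8.44, 6.65 and 7.73 FPKM (-0.82 ± 0.09), and the phosphatase gene DUSP7 fell by 0.43 ± 0.07. Of 10 tested AP-1 and ATF3 genes 5 fell and 0 rose, also after median-ratio scaling, against 3 and 1 without both first replicates. JUNB stood at 74.8, 71.8 and 60.8 FPKM without Dox and 42.7, 41.0 and 36.6 with it (-0.77 ± 0.10, limma adjusted p = 4.4e-04), and FOSL1 at 42.4, 44.1 and 40.2 against 31.2, 27.7 and 29.2 (-0.51 ± 0.07). MYC stood at 180, 180 and 173 against 127, 119 and 116 (-0.56 ± 0.06), and the cyclin gene CCND1 at 72.0, 72.2 and 68.1 against 47.1, 44.5 and 47.7 (-0.60 ± 0.06). All 4 of these transcription factor and cyclin genes kept the call in each of the 27 other settings.

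Genes of the basement membrane, the matrix and the plasminogen system were also among the falls. LAMB3, a laminin chain of epithelial basement membranes, stood at 31.6, 29.9 and 28.2 FPKM without Dox and 15.3, 17.3 and 14.9 with it (-0.88 ± 0.08), and LAMC1, of other laminins, fell by 0.39 ± 0.05. Of 20 tested integrin and laminin genes 6 fell and 1 rose (6 and 0 after median-ratio scaling), though the list's median was 0.02, and -0.06 with that scaling. PLAT, tissue plasminogen activator, stood at 38.3, 37.4 and 34.6 FPKM without Dox and 11.3, 10.6 and 10.98 with it (-1.66 ± 0.07, limma adjusted p = 3.9e-07). Its relatives fell less: PLAU at 280, 242 and 225 against 170, 164 and 161 (-0.58 ± 0.09), and the receptor gene PLAUR by 0.50. In all, 5 of 9 tested genes of the plasminogen system fell and 0 rose, with the same counts after median-ratio scaling. Matrix metalloproteinases and their relatives went both ways, with 2 of 11 higher and 3 lower (median 0.04). These counts were 1 and 3 after median-ratio scaling, and also without both first replicates. The collagenase gene MMP13 rose by 0.47 ± 0.10 and the membrane protease gene ADAM9 by 0.73 ± 0.20. The ADAM9 call was lost after median-ratio scaling. The MMP13 call was lost without both first replicates and with the length and GC trend removed. MMP1, interstitial collagenase, stood at 3.12, 2.62 and 3.11 FPKM against 0.68, 0.78 and 0.46 (-1.27 ± 0.10, limma adjusted p = 2.8e-05).

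FN1, fibronectin, was among the most abundant transcripts and stood at 6115, 6234 and 6135 FPKM without Dox and 3406, 3397 and 3356 with it (-0.86 ± 0.06, limma adjusted p = 8.5e-06), or -0.33 after quantile normalization (adjusted p = 0.018). Of 29 extracellular matrix genes 12 fell and 1 rose (14 and 0 after median-ratio scaling), COL7A1 (-0.59) and FBLN1 (-0.58) among them. Among 25 genes known to answer TGF-beta through SMAD proteins, 12 were lower and 1 higher (12 and 0 after median-ratio scaling), with LTBP2, a matrix protein related to binders of latent TGF-beta, at 11.5, 12.1 and 12.2 against 6.18, 6.17 and 5.69 FPKM (-0.88 ± 0.06). Of 24 epithelial junction and keratin genes, 9 were lower and 2 higher (10 and 1 after median-ratio scaling). CLDN1, a tight junction claudin, stood at 430, 455 and 457 against 231, 274 and 270 (-0.79 ± 0.07), KRT19 at 69.3, 62.0 and 55.5 against 35.3, 35.7 and 33.1 (-0.82 ± 0.08) and KRT7 fell by 0.85 ± 0.09. The sums of epithelial and proximal tubule markers given above moved with this group, and their part in it was not tested. F3, tissue factor, stood at 240, 234 and 237 FPKM without Dox and 138, 137 and 146 with it (-0.76 ± 0.05), a close spread in both groups. Further large falls were those of IQCD (-1.62), the protease inhibitor gene SERPINA1 (-1.59), CITED4, which binds the coactivators CBP and p300 (-1.53), the semaphorin and VEGF receptor gene NRP2 (-1.42), G0S2, an inhibitor of triglyceride lipase (-1.41), the deubiquitinase gene OTUB2 (-1.38) and the repressor gene HIC1 (-1.36). All 7 kept their call in every other setting in which they were tested.

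Metabolic lists differed from each other. Of 28 tested genes of cholesterol synthesis and uptake 6 fell and 1 rose (10 and 1 after median-ratio scaling, 11 and 3 with the block, 3 and 1 without both first replicates). MVD, an enzyme of the mevalonate pathway, stood at 38.3, 33.9 and 33.0 FPKM without Dox and 20.2, 19.7 and 20.5 with it (-0.77 ± 0.11), and INSIG1, which holds back the sterol sensor, fell by 0.50 ± 0.08. Of 31 genes of glycolysis and hypoxia 12 rose and 3 fell (6 and 4 after median-ratio scaling). EPAS1, the hypoxia factor HIF-2 alpha, stood at 82.4, 82.5 and 80.1 against 124, 128 and 126 FPKM (0.62 ± 0.05, limma adjusted p = 2.0e-05). The collagen prolyl hydroxylase genes parted: P4HA1 stood at 36.8, 42.4 and 42.0 against 61.0, 73.3 and 67.1 (0.72 ± 0.10) and P4HA2 at 99.8, 89.8 and 88.3 against 53.6, 56.1 and 49.3 (-0.79 ± 0.07). Of 29 fatty acid and triglyceride synthesis genes 4 rose and 4 fell (2 and 6 after median-ratio scaling). FASN and SCD, enzymes of fatty acid synthesis, fell by 0.48 and 0.43, while PLIN2, given above, and ME1, which makes NADPH, rose, ME1 by 0.52. The ME1 call was lost with the length and GC trend removed, though not when the block was added to that setting. Respiratory chain subunits (6 of 74 higher and 1 lower, 1 and 1 after median-ratio scaling) and cytosolic ribosomal proteins (0 of 78 called, 16 lower and 1 higher with the block) lay at or under the share over all genes in the fit without the block.

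Cell cycle counts depended on the scaling and on the first replicates. Of 42 tested G2/M and mitosis genes 14 were higher and 0 lower (median 0.24), but 1 after median-ratio scaling, 2 without both first replicates and 27 with the block. NUSAP1, a spindle protein, stood at 43.3, 50.1 and 55.9 FPKM without Dox and 67.0, 64.0 and 65.6 with it (0.40 ± 0.09). The cytokinesis genes ANLN (0.70) and KIF23 (0.61) and the kinase gene NEK2 (0.47) had larger values, and the call of each ended under 15 of 27 other settings. The CDK inhibitor gene CDKN2C stood at 21.4, 18.0 and 18.4 against 33.0, 27.7 and 31.0 FPKM (0.64 ± 0.08) and kept its call in each of the 27. Of the 7 genes of the Mediator kinase module, the target of the inhibitor, CDK19 (0.30, adjusted p = 0.038) and MED13L (0.27, adjusted p = 0.029) were called, but 0 of 7 after median-ratio scaling, 1 without both first replicates and 4 with the block. Of 31 guanylate-binding and interferon-induced genes 9 rose and 1 fell (4 and 2 after median-ratio scaling, 4 and 1 without both first replicates). GBP1 stood at 11.3, 12.7 and 14.1 FPKM against 19.5, 19.5 and 21.1 (0.62 ± 0.10), and PARP9 at 5.46, 6.08 and 5.73 against 8.54, 8.81 and 8.56 (0.51 ± 0.06).

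The same induction without inhibitor, Dox against vehicle, used the other 6 libraries and called 2269 genes (17.9%). With the same sign in both, 1037 genes were called (640 higher, 397 lower), which is 45% of the calls with inhibitor and 45.7% of those without. A further 25 were called with opposite signs, 1242 only with the inhibitor and 1207 only without it. A gene called on 1 side only has not been shown to differ, so the difference itself was tested as the Dox change with inhibitor minus that without. This interaction was called for 357 genes (2.82%), 115 positive and 242 (1.91%) negative, and for 199 of the 2304 genes called with inhibitor. Called with the inhibitor, not called without it and with a called interaction were 91 genes, 40 of them higher and 51 lower. The count of interactions was 186 or 207 with the second or the third Dox library left out, 198 with the second DMSO library left out, 204 with the second inhibitor library left out, 237 or 214 with the second or the third Dox and inhibitor library left out, and 666 with the block.

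Translocation carcinoma markers had the highest share of negative interactions of any list. Of 19 tested, 12 had a negative interaction and 0 a positive one. GPNMB changed by 2.90 without and 0.73 with inhibitor (difference -2.17 ± 0.11, limma adjusted p = 4.3e-06), and RRAGD by 2.26 and 0.66 (-1.60). RRAGD lay near 1 FPKM with inhibitor, where the log2(FPKM + 1) scale understates changes. Its change there ran from 0.22 to 1.23 over the other settings, so the size of its difference depends on the scale. Negative interactions were also called for 13 of 49 lysosomal hydrolases, 9 of 40 membrane and trafficking genes, 4 of 19 V-ATPase subunits and 5 of 33 folliculin and Rag genes, with 0 positive in each. RRAGC, for instance, rose by 1.38 without and 0.68 with inhibitor (-0.70, limma adjusted p = 5.4e-04). Not all members shared this: SCPEP1 rose by 0.78 and 0.72 (difference -0.06, limma adjusted p = 0.87) and ATP6V1A by 0.95 and 0.82 (difference -0.13, limma adjusted p = 0.65). TFE3 itself rose by 2.04 and 1.57 (difference -0.47, limma adjusted p = 0.023), so the induced transcript was lower under the inhibitor too, and its part in the smaller rises was not tested. CENPT, at 1.91 and 1.55, had a difference of -0.36 (limma adjusted p = 0.025).

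**Figure D3:**
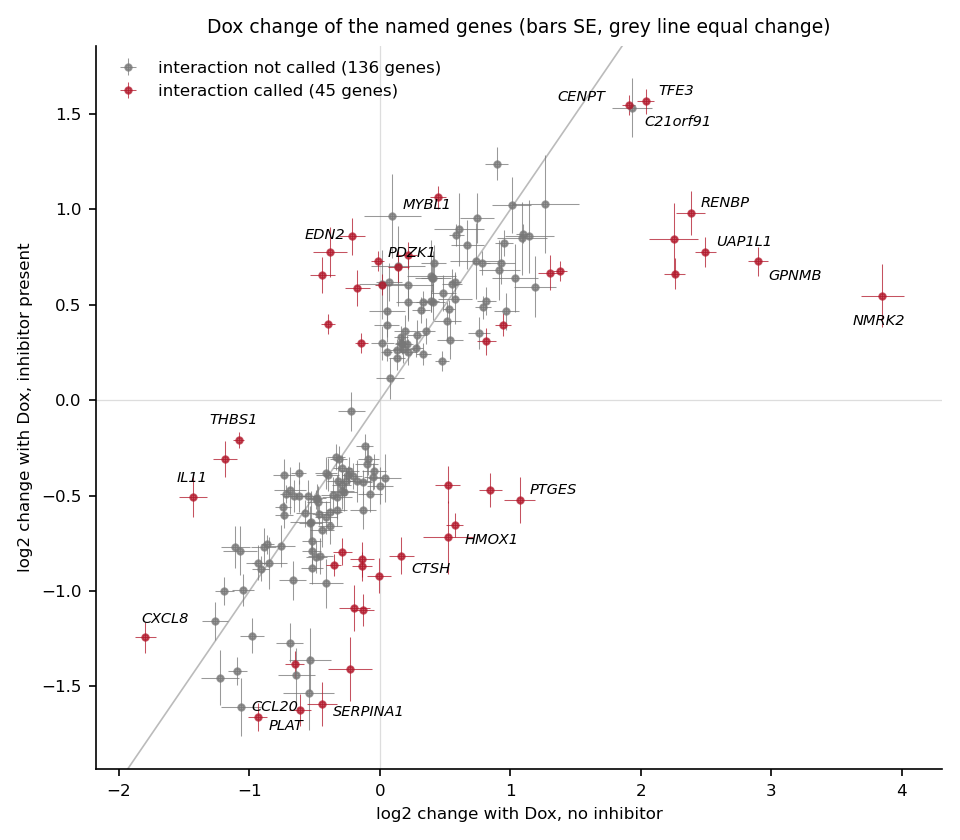
Log2 change with Dox in the absence of inhibitor (horizontal) and in its presence (vertical) for named genes, with SE bars and a grey line of equal change. Red points have a called interaction: GPNMB, UAP1L1 and RENBP lie right of the line with a smaller rise under the inhibitor, and HMOX1, PTGES and TM4SF19 rose without it and fell in its presence. The PTGES fall lost its call under 3 of 27 other settings.

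Falls went both ways, though not evenly. Among genes lower without inhibitor 82 interactions were called, 71 positive (a smaller fall or a rise under the inhibitor) and 11 negative. The choice of these genes and the difference share the libraries without inhibitor, which favours positive values, so this split is not a test. CXCL8 fell by 1.80 without and 1.24 with inhibitor (difference 0.55, limma adjusted p = 0.026), a smaller fall under the inhibitor. PLAT had a larger fall under it, with a difference of -0.73 (limma adjusted p = 0.0035). For AREG, EREG, CSF2, JUNB and PDGFB the differences lay between -0.25 and 0.12 and were not called. Over all 12649 tested genes, 925 were lower without inhibitor and 115 interactions were positive, with 71 genes in both sets. G2/M and mitosis genes had 14 of 42 higher with inhibitor (1 after median-ratio scaling, 2 without both first replicates) and 4 lower without it. Their interaction was positive in 4 of 42. Cholesterol genes, lower in 19 of 28 cases without inhibitor and 6 with it, had 4 positive interactions and 1 negative.

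**Figure D4:**
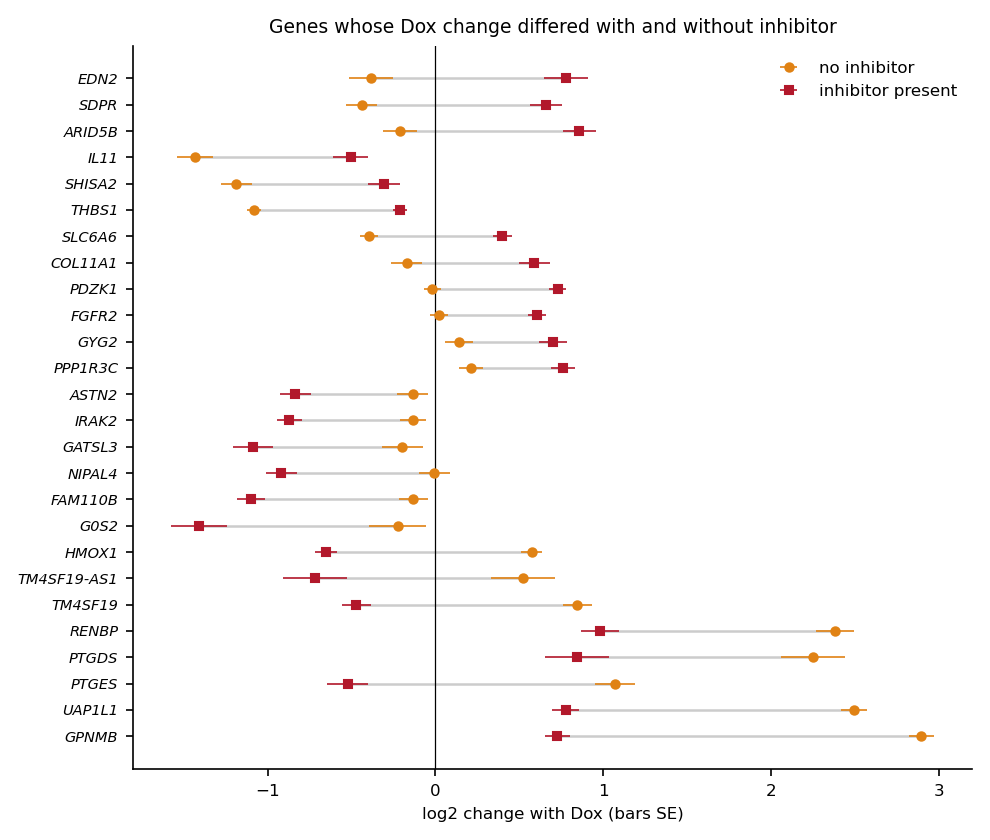
Log2 change with Dox without inhibitor (orange circles) and with it (red squares), bars SE, for 26 genes with a called interaction, ordered by the difference. SLC6A6 fell without inhibitor and rose with it, EDN2 rose with it and was not called without it, and HMOX1, TM4SF19 and PTGES rose without it and fell with it. The fall of PTGES lost its call under 3 of 27 other settings.

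Levels in all 4 groups show where each change started. CCL20 had a mean of 1.9 FPKM in vehicle, 0.387 with Dox, 58.2 with inhibitor and 18.4 with both. In the same order CSF2 stood at 5.58, 1.86, 18.6 and 6.11, PLAT at 12.1, 5.86, 36.8 and 10.9, and FN1 at 2647, 2069, 6162 and 3386. In these 4 genes the mean with inhibitor alone was the highest of the 4 and the mean with Dox alone the lowest. For the rises the order differed: PLIN2 stood at 31.2 FPKM in vehicle, 67.7 with Dox, 13 with inhibitor and 24.6 with both, and ATP6V1A at 17.4, 34.5, 7.17 and 13.5. CENPT stood at 22.1, 85.5, 23.8 and 71.4. The comparisons with and against inhibitor share libraries, so these levels are given side by side and not as support for each other.

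**Figure D5:**
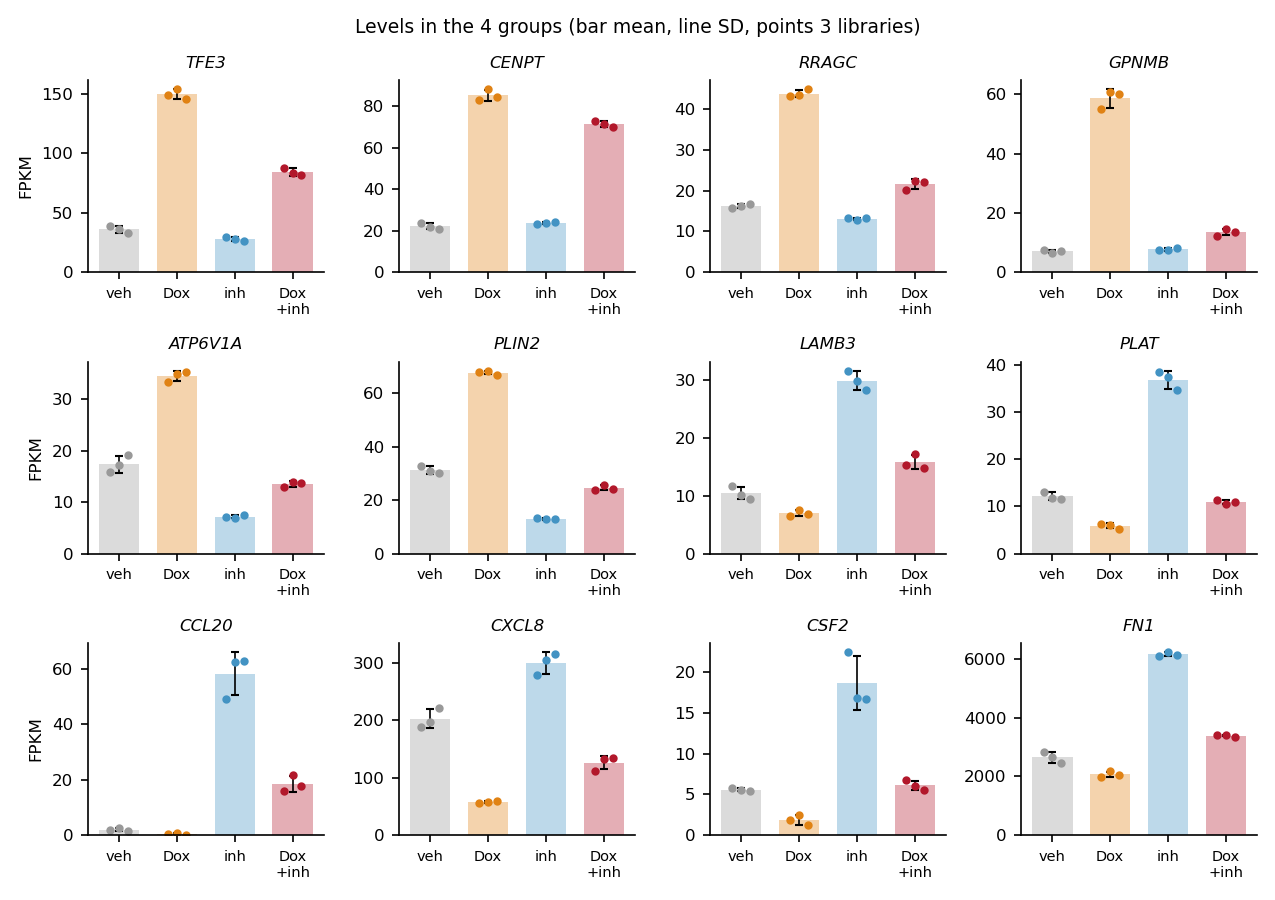
FPKM of selected genes in vehicle (veh), Dox, inhibitor (inh) and Dox with inhibitor, as mean bars from 0 with SD lines and 1 point per library. PLAT, CCL20, CSF2 and FN1 are highest with inhibitor alone, whereas TFE3, CENPT, RRAGC, GPNMB, ATP6V1A and PLIN2 are highest with Dox alone.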

How the data were processed

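RNA of 12 HK-2 libraries (stranded mRNA kit, per the labels' protocols) was deposited by the authors as FPKM per gene symbol, with 2 decimals and no counts. The submitters' processing notes name Salmon 1.9.0, Trim Galore 0.6.7, GRCh38.p13 and hg38. Sources used here do not give the annotation or the step from transcripts to genes. Every value column carried the name of 1 sample (0 columns without one).

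Genes at 1 FPKM or more in at least 3 libraries were fitted as log2(FPKM + 1), a scale that understates changes of low genes, with limma 3.58.1 (R 4.3.3) and a trended variance prior, as 4 group means over 12 libraries (8 residual degrees of freedom). Calls had a Benjamini-Hochberg adjusted p under 0.05 over all tested genes. SE is that of limma, and the tests were two-sided. The fit was also tried on simulated data with independent noise. Those data had no GC trend and no tie between replicates, so the trial does not show how the calls hold under either.

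Members and gene lists were chosen with earlier results of these data known. Named genes were the fusion partners, the 15 largest rises and falls that held under both scalings without overlap and at a mean of 2 FPKM or more, up to 4 called genes per list by size plus preset ones, and up to 8 and 6 genes each way by interaction. Genes outside this rule are said to be so, and some genes within it are not reported here. Replicate numbers were checked for pairing: deviations of same-numbered libraries with inhibitor correlated at 0.55, 0.13 and 0.34 across genes. For replicate 2 with inhibitor alone, a Dox library of another number correlated better. The deviations also moved with GC content, so these values do not settle whether the numbers pair the libraries. DMSO and Dox libraries gave 0.017, -0.072 and 0.2. The fit without the block was kept as the one reported, with the block as an alternative. Alternatives were other scalings, pseudocounts of 0.1 and 5, other filters, the 6 libraries alone, no variance trend, the block, removal of the trend with transcript length and GC, and each library left out.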

Additional observations from a re-analysis of the deposited data

Results flagged for a closer look

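The Dox change with inhibitor minus that without it was tested as an interaction in limma over all tested genes. Of the named genes, 47 passed an adjusted p of 0.05. The 26 of them that were chosen by interaction are listed here, with values given without weighing.

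More positive changes under the inhibitor were found for EDN2 (difference 1.16, limma adjusted p = 0.0059), SDPR, a caveolar protein gene (1.10, 0.0014), ARID5B, a chromatin cofactor (1.07, 0.002), the cytokine gene IL11 (0.93, 0.0068), SHISA2 (0.88, 0.0047), the matrix gene THBS1 (0.87, 3.3e-05), the taurine transporter gene SLC6A6 (0.80, 0.00032) and COL11A1 (0.76, 0.011). SDPR stood at 29.4, 35.6 and 38.3 FPKM with inhibitor alone and at 54.3, 54.2 and 55.3 with Dox. IL11 and THBS1 fell in both settings, by 1.43 and 1.08 without inhibitor and by 0.51 and 0.21 with it. The call of SHISA2 with inhibitor ended under 14 other settings.

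More negative changes were found for GPNMB (-2.17, limma adjusted p = 4.3e-06), UAP1L1 (-1.72, 2.4e-05), PTGES, a prostaglandin E synthase gene (-1.59, 0.00054), PTGDS, a prostaglandin D synthase gene (-1.41, 0.019), RENBP (-1.40, 0.00099), TM4SF19 (-1.32, 3e-04), TM4SF19-AS1 (-1.24, 0.033) and HMOX1, heme oxygenase (-1.23, 5e-05). TM4SF19 and its antisense gene overlap, so the second value is uncertain. With inhibitor, the calls of PTGES and PTGDS each ended under 3 of 27 other settings and that of TM4SF19-AS1 under 8.

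Among genes called with inhibitor and not without it, the differences were positive for PDZK1, a scaffold of brush border transporters (0.75, limma adjusted p = 3e-04), the growth factor receptor gene FGFR2 (0.59, 0.0021), GYG2, which primes glycogen (0.56, 0.024), and PPP1R3C, a glycogen phosphatase subunit (0.55, 0.015). They were negative for G0S2 (-1.18, 0.023), FAM110B (-0.97, 0.0015), NIPAL4 (-0.91, 0.0031), GATSL3 (-0.89, 0.017), IRAK2 (-0.73, 0.004) and ASTN2 (-0.70, 0.016). PDZK1 stood at 9.43, 10.4 and 9.42 FPKM with inhibitor alone and at 17.0, 17.2 and 16.1 with Dox and inhibitor, against means of 43.0 and 42.5 in vehicle and Dox.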

How the results depend on the processing

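Of 183 called named genes, 124 kept the call in every one of the settings beside the reported one in which they were tested. Depth is unknown, so low genes are limited by rounding to 2 decimals. The causes of the shifts below were not tested. Settings with 6 libraries and the block, or without both first replicates, were chosen after seeing the data. Called genes for Dox with inhibitor (2304) numbered 1099 in the 6 libraries alone, 4548 with the replicate block, 3794 with the block and median-ratio scaling, 4297 in the 6 libraries with the block, 1330 without both first replicates and 1223 so with median-ratio scaling. Higher genes (1537) numbered 658 after median-ratio scaling, 752 after quantile normalization, 600 in the 6 libraries, 3351 with the block, 3098 in the 6 libraries with the block, 843 without both first replicates and 357 so with median-ratio scaling. Lower genes (767) numbered 1208 after median-ratio scaling, 499 in the 6 libraries, 1197 with the block, 2087 with the block and median-ratio scaling, 1320 with the length and GC trend removed, 1638 so with the block, 1199 in the 6 libraries with the block and 487 without both first replicates. Genes called without inhibitor (2269) numbered 3741 with the replicate block, 3826 with block and median-ratio scaling, 3432 with the trend removed and 4063 so with the block. Interactions (357) numbered 666, 645, 935 and 1171 in that order. Leaving out 1 library gave 1121 to 2920 called, 677 to 2010 higher, 444 to 910 lower, 1427 to 2665 without inhibitor and 186 to 420 interactions. Called genes with inhibitor fell most without Dox plus inhibitor replicate 3 (1121) or 2 (1245) or inhibitor replicate 2 (1352), higher genes also without inhibitor replicate 1 (1006), and those without inhibitor without Dox replicate 3 (1427) or DMSO replicate 2 (1492). B2M turned from 0.20 to -0.0544 with the length and GC trend removed, with and without the block.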
